A study of Mus musculus with 16 samples.

Results

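The mitochondrial carriers of the Slc25 family were followed across the livers of obese mice that received vehicle or G108 on 2 diets. Members were all genes of the deposited expression table whose Ensembl identifier belongs to a protein-coding mouse gene with a symbol of the form Slc25a followed by a number, and 3 of the 47 such genes were left out. This gave 44 of the 55487 gene identifiers in the table. Of these, 31 reached a mean of at least 1 TPM (a transcript abundance set relative to gene length and to the library total) over all libraries and were tested among 11839 such genes, while 13 stayed below that level.

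Slc25 proteins form the large carrier family of the mitochondrial inner membrane, which is otherwise closed to most metabolites. Each carrier moves a small set of substrates, such as ADP and ATP, phosphate, citrate, malate, glutamate, acylcarnitines, glutathione or enzyme cofactors, usually in exchange for another. In hepatocytes these exchanges link the mitochondrial steps of urea and glucose synthesis, fat oxidation and fat synthesis to the cytosol, and glucagon acts on several of these pathways through cyclic AMP.

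All mice were male C57BL6/J mice made obese by ad libitum feeding of a diet with 60 kcal% fat, and no lean or chow-fed group was part of the comparison. For the experiment the fat-rich diet held either standard protein (SP) or high protein (HP), given with a daily subcutaneous injection of vehicle or of G108, a long-acting glucagon receptor agonist, at 2.5 nmol/kg for 22 days. By their labels, mice were 10 weeks old before 8 weeks of the first diet, and were culled on day 25 after a 4 h fast. The methods text differs in age and intervals. Vehicle or G108 was thus combined with either diet in 4 groups of 4 livers, 1 RNA-seq library per mouse, so that the spread between libraries includes that between mice. The libraries held 27.8 to 45.0 M reads in genes. Whole liver was sequenced, so fewer cells of a type and less RNA per cell cannot be told apart.

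The libraries held the markers of their labelled tissue. The 6 hepatocyte markers summed to 28450 scaled TPM or more in every library, while 4 of 5 skeletal muscle markers and 3 of 4 exocrine pancreas markers stayed under 0.1. Of the 5 adipocyte markers, Plin1 and Lep stayed under 0.1, Adipoq reached at most 0.201 and Cidec 2.49, and Car3, which liver also expresses, was at 331 to 860. Through Car3 the adipocyte list summed to 510 to 862 scaled TPM in the vehicle libraries and 332 to 425 in the G108 libraries, without overlap, and its part in the differences described here was not tested. The libraries of vehicle SP mouse 4 and G108 HP mouse 3 stood apart. Their Hba-a1 levels, an alpha globin of red blood cells, were 889 and 669 scaled TPM against 154 to 373 in the other libraries. The mitochondrial genome gave 37.3% of TPM in G108 HP mouse 3, the highest share, and 24.0% in vehicle SP mouse 4, which lay within the 13.8% to 27.4% of the rest. Major urinary protein (Mup) genes, abundant secreted proteins of mouse liver, took 35.2% to 49.0% of TPM in the vehicle libraries and 17.5% to 29.3% in the G108 libraries. Because TPM are shares of a library, such shifts move every other gene. On TPM as deposited G108 shifted the typical tested gene, by the median of the log2 fold changes, by 0.60 on SP and 0.09 on HP. Levels below are therefore scaled TPM, the deposited TPM divided by a median-of-ratios factor per library. On this scale the medians were -0.01 and -0.00. The scaling takes most genes to be unchanged and brings such medians close to no change by construction, so they are not a check of it. Fold changes are on the log2(scaled TPM + 1) scale, which understates changes of low genes, with their standard error (SE) and with limma's p-value after Benjamini-Hochberg adjustment over all 11839 genes.

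Promoter windows of RefSeq (GRCm38.p6) were available for 34 of the 44 members, 43 windows in all, and the 250 bases before each start were searched for the cyclic AMP response element TGACGTCA, which CREB binds, and for its half-site TGACG on either strand (CGTCA on the other, with each full element holding both). The full element lay in the windows of Slc25a25 and Slc25a36 only, that is in 4.65% of the member windows against 1.55% of all 32851 windows. Half-sites lay in 23.3% of the member windows, those of 9 members, against 17.8% of all windows. The 3 windows below are those of the 2 members with the full element and of Slc25a3, with the most half-sites (4), each written 5′ to 3′ up to the base before the start, with the matched letters in capitals. They lie at chr2:32424067-32424316 (minus strand, the innermost of 3 annotated starts of Slc25a25), chr9:97111042-97111291 (minus strand) and chr10:91123968-91124217 (minus strand).
Slc25a25: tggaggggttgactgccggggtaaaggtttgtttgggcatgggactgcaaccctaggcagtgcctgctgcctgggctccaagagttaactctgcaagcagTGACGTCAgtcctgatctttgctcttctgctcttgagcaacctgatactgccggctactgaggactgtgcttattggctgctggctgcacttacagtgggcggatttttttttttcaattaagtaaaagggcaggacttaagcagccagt
Slc25a36: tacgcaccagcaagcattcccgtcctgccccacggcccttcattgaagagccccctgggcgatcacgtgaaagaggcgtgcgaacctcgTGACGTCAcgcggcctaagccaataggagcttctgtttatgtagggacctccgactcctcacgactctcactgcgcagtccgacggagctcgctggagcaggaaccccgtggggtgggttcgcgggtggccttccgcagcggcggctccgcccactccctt
Slc25a3: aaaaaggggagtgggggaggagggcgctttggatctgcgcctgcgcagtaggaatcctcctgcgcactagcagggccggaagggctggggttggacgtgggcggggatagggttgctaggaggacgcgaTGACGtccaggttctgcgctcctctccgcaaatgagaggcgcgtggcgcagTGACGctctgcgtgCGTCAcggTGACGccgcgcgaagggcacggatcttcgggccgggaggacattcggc
The full element began 150 bases before the start in Slc25a25 and 161 bases before it in Slc25a36, and the half-sites of Slc25a3 began 121, 70, 56 and 48 bases before its start. No half-site was found in the windows of Slc25a22, Slc25a48 or Slc25a34, and Slc25a51 had no entry. A match is a description of these letters and not of binding. Slc25a36, with its full element, was at a mean of only 0.369 TPM, far under Slc25a25 at 29.3 TPM and Slc25a3 at 44.2 TPM.

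The family's transcripts were concentrated in few members. The 3 most abundant, Slc25a5, Slc25a39 and Slc25a47, held 41.1% of the summed TPM of the members, and the 12 most abundant held 86.5%. Within sets of related carriers a single member usually dominated. Slc25a5, an ADP/ATP exchanger, averaged 129 TPM over all libraries, its relative Slc25a4 only 1.07 TPM, and Slc25a31, known from testis, did not exceed 0.108 TPM in any library. Slc25a5 shares 49.4% of its 31-base stretches with 13 other genes, Gm5560 and other processed pseudogenes among them, so its level is uncertain. Of the ATP-Mg/phosphate carriers, which load mitochondria with adenine nucleotides, Slc25a23 averaged 37.5 TPM and Slc25a25 29.3 TPM. Slc25a24 averaged 0.208 TPM, and Slc25a41 was at most at 0.0272 TPM in any library. Of the glutamate carriers, Slc25a22 averaged 50.2 TPM and Slc25a18 0.327 TPM. Of the glutathione carrier pair, Slc25a39 averaged 101 TPM and Slc25a40 0.354 TPM.

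**Figure D1:**
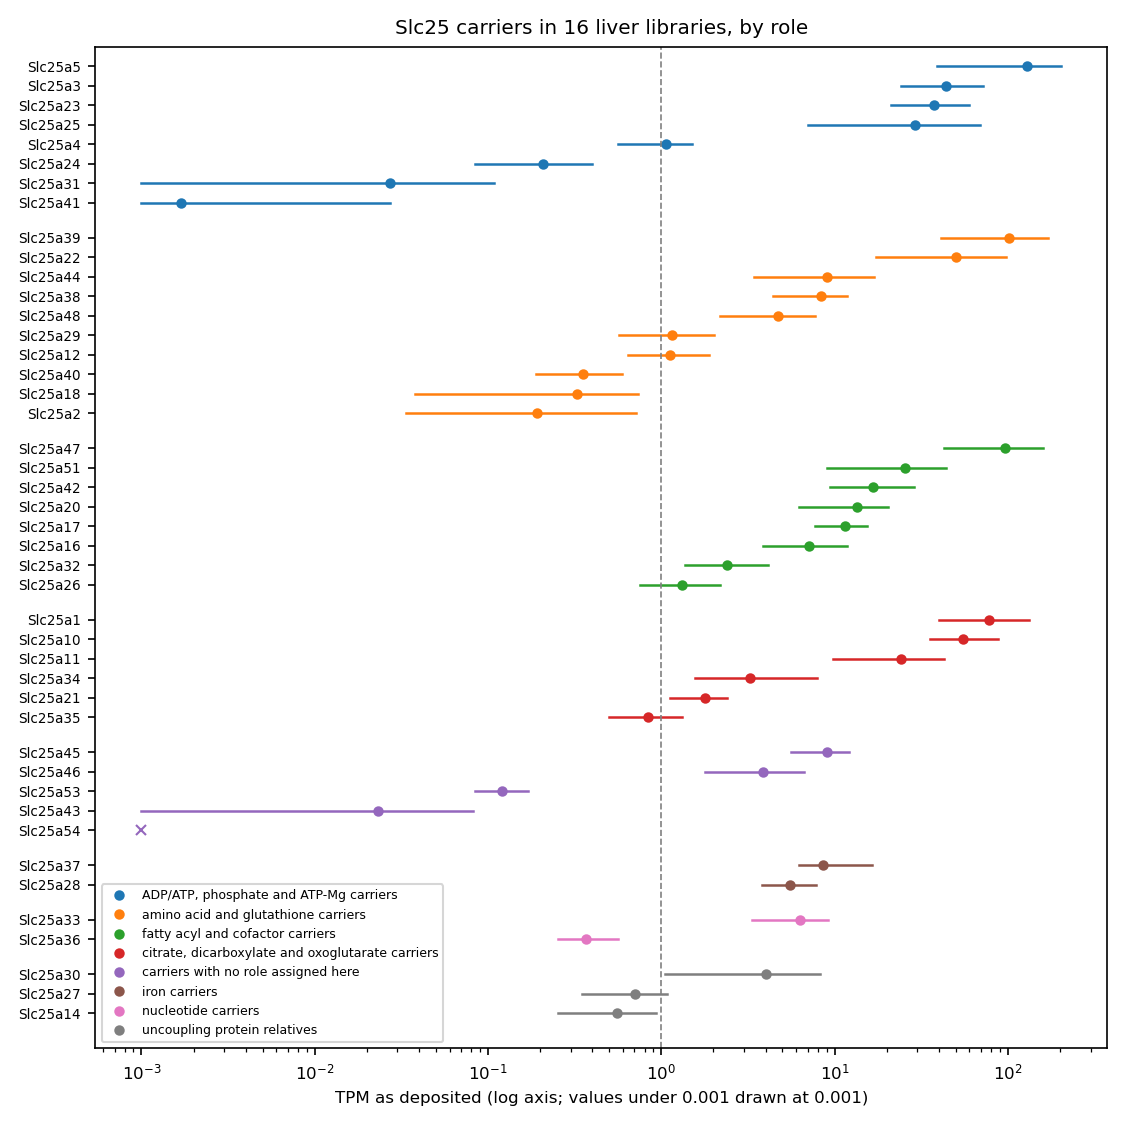
TPM as deposited (log axis) of all 44 carriers, ordered by role and level, with the mean over 16 libraries (point) and the lowest to highest library (line). The dashed line marks 1 TPM, and the cross marks Slc25a54, at 0 in every library. Slc25a5 leads at a mean of 129 TPM, and the related Slc25a4 lies at 1.07 TPM.

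Besides those just named, the members under a mean of 1 TPM were Slc25a35, Slc25a27, Slc25a14, Slc25a2, Slc25a53 and Slc25a43, whose highest library values were 1.32, 1.08, 0.935, 0.712, 0.171 and 0.0814 TPM, and Slc25a54, listed at 0 in every library. The highest values of Slc25a36, Slc25a40, Slc25a18, Slc25a24 and Slc25a31 were 0.560, 0.592, 0.732, 0.399 and 0.108 TPM. No group difference was read for these 13. Slc25a35 shares 27.5% of its 31-base stretches with other genes, mostly the overlapping Rangrf.

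In all, 4 pairs of members lay within 100 kb of each other in the genome (GRCm38), and in each pair the levels were unequal. Slc25a29 and Slc25a47 lie head to head on chromosome 12, with 162 bases between their outermost annotated ends, at means of 1.15 and 96.1 TPM. The RefSeq promoter windows do not adjoin. That of Slc25a29 is at chr12:108835877-108836126, and the only one of Slc25a47 is at chr12:108850879-108851128, inside its annotated span. Slc25a41 and Slc25a23 lie 2056 bases apart on chromosome 17, at 0.00170 and 37.5 TPM. Slc25a43 and Slc25a5 lie 18448 bases apart on the X chromosome, at 0.0231 and 129 TPM. Slc25a54 and Slc25a24 lie 6461 bases apart on chromosome 3, and both are at or under 0.208 TPM.

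G108 against vehicle on SP addressed what the agonist does on the standard diet. Slc25a25, Slc25a48 and Slc25a22 rose, and no member fell past the threshold. These were 3 of 31 members, where 1.33% of all 11839 genes tested were called higher. At an unadjusted p under 0.05, 7 members were higher and 2 lower, 9 of 31 where 17.7% of all genes passed, and voom, a count-based form of limma run on reads recovered from the TPM, also called 3 higher and 0 lower. Over the 31 members the median log2 fold change was 0.10, against -0.01 over all genes, and 20 of 31 were above 0, where 48.7% of all genes were.

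Slc25a25 (chr2:32414487-32451445, minus strand), a calcium-regulated ATP-Mg/phosphate carrier, was at 14.1, 13.98, 10.5 and 10.3 scaled TPM in vehicle SP mice 1 to 4. In the G108 SP mice it was at 25.4, 34.3, 45.1 and 39.7. All 4 treated mice lay above all 4 controls. On SP that order held in 5 of 31 members and 4.52% of all genes tested, and the reverse in 1 member and 4.69%. For Slc25a25 the log2 fold change was 1.47 ± 0.23 (SE), a 2.78-fold difference (limma adjusted p = 0.00274). The call was kept with each of the 16 libraries left out in turn and under all 10 other settings tried. Within a library, where any scaling cancels, the ratio of Slc25a25 to its relative Slc25a23 was 0.362 ± 0.0512 (SD, n = 4) in vehicle SP and 0.974 ± 0.159 in G108 SP, with no overlap of the groups. The opposite-strand gene Naif1, itself low at 0.768 TPM, overlaps 4.82% of the exon bases of Slc25a25, and the antisense gene Gm17168, at a mean of 58.0 TPM, overlaps 3.17% of those of Slc25a23.

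Slc25a48 (chr13:56438355-56474239, plus strand), linked to the entry of choline into mitochondria, was at 3.98, 2.82, 2.92 and 3.19 scaled TPM in vehicle SP and at 5.69, 5.25, 4.84 and 5.24 in G108 SP. The groups did not overlap, and their spread was small. The log2 fold change was 0.57 ± 0.09 (limma adjusted p = 0.00286). Slc25a48 was called with each library left out and under 8 of 9 other settings.

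Slc25a22 (chr7:141429744-141437892, minus strand), which carries glutamate into the mitochondrion, was at 38.0, 26.7, 19.5 and 44.9 scaled TPM in vehicle SP, with mice 1 and 4 well above mice 2 and 3. In G108 SP it was at 56.2, 67.3, 63.1 and 62.7, above every control. The log2 fold change was 0.99 ± 0.22 (limma adjusted p = 0.0217). The call was lost when vehicle SP mouse 2 or 3 or G108 SP mouse 2, 3 or 4 was left out, with a limma adjusted p of at most 0.0745. It was kept under 7 of 10 other settings, and lost with no filter, with only the groups compared and with the replicate block, at up to 0.115.

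Slc25a51 (chr4:45395923-45408766, minus strand), the carrier that brings NAD into mitochondria, showed the same split of the vehicle SP mice, at 24.9, 11.01, 10.1 and 22.7 scaled TPM, and was at 30.1, 27.4, 27.9 and 29.9 in G108 SP. Although the groups did not overlap, the log2 fold change of 0.82 ± 0.25 missed the threshold (limma adjusted p = 0.104). It passed with vehicle SP mouse 1 left out, at 1.02 (limma adjusted p = 0.0291). Slc25a34 (chr4:141618824-141623821, minus strand), a carrier of unsettled substrate, was at 3.40, 1.84, 1.75 and 2.58 in vehicle SP and at 3.40, 3.92, 5.16 and 3.79 in G108 SP, a log2 fold change of 0.59 ± 0.18 (limma adjusted p = 0.0945). The 1 member with all treated mice below all controls on SP was Slc25a17, which also missed the threshold. Vehicle SP mice held 11.2, 11.8, 12.9 and 12.9 scaled TPM of Slc25a17, and G108 SP mice 9.96, 10.0, 9.68 and 10.5. This difference of -0.26 ± 0.07 on the log2 scale (limma adjusted p = 0.0841) was 0.46 on TPM as deposited. In Slc25a51 a same-strand annotated miRNA, Gm25692, covers 125 bases, or 2.27% of the exon bases. Gm25692 was at 132 TPM against 25.6 TPM for Slc25a51, and how its reads were shared with Slc25a51 was not tested.

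**Figure D2:**
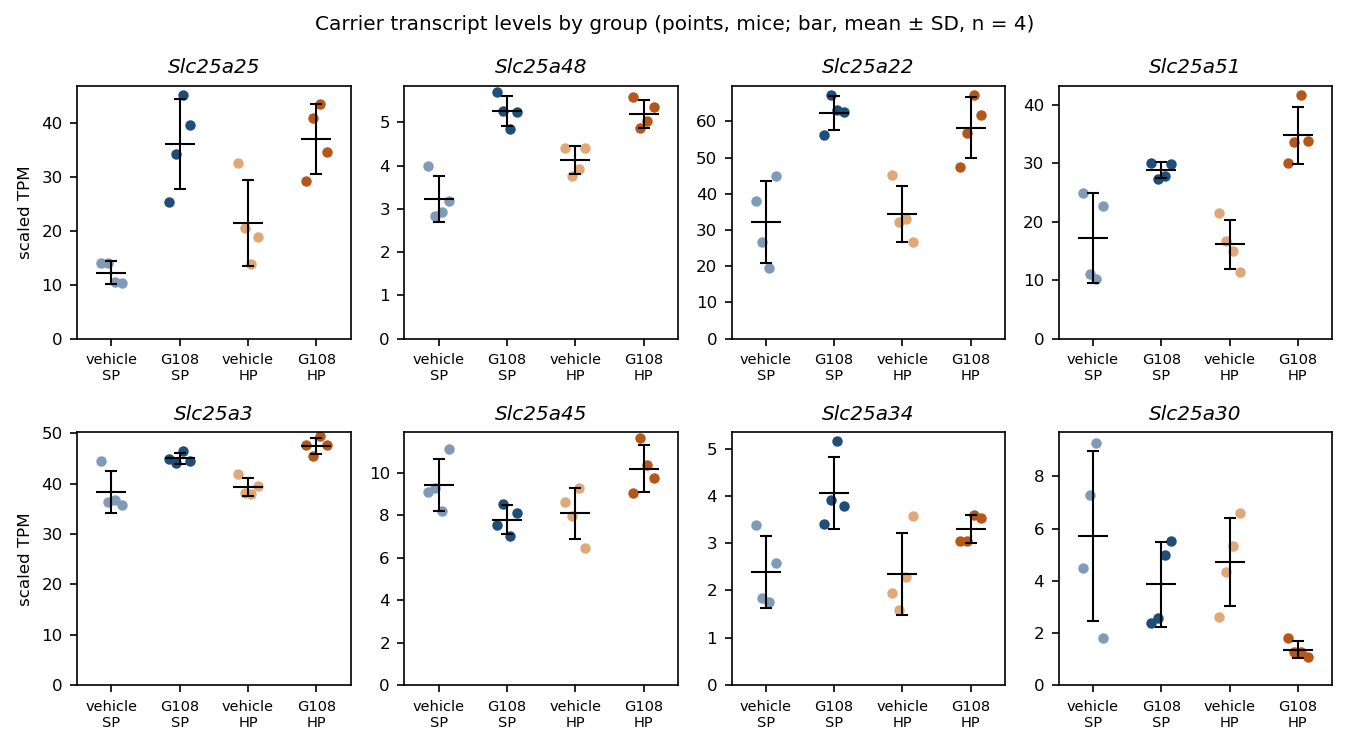
Scaled TPM of 8 carriers (vertical axes from 0, each with its own range) in the 4 groups, with 1 point per mouse and bars for mean ± SD (n = 4). In Slc25a48, Slc25a22 and Slc25a51 all 8 G108-treated mice sit above all 8 vehicle-treated mice, and Slc25a30 is lowest in G108 HP, at 1.07 to 1.81.

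G108 against vehicle on HP asked the same on the protein-rich diet. Slc25a51 rose, 1 of 31 members where 0.642% of all genes were called higher, and no member was called lower. At an unadjusted p under 0.05, 7 members were higher and 2 lower, 9 of 31 where 11.3% of all genes passed, and voom called 1 higher and 0 lower. The median log2 fold change of the members was -0.04, against -0.00 over all genes, and 13 of 31 were above 0, where 49.2% of all genes were. The call lay close to the threshold. Without the libraries of vehicle SP mouse 4 and G108 HP mouse 3, an alternative added after seeing the data, limma called 0 members on HP. Slc25a51 then had a limma adjusted p of 0.108, and the count over all genes in that fit is not given here.

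Slc25a51 was at 21.5, 16.7, 14.9 and 11.5 scaled TPM in vehicle HP and at 30.1, 33.6, 41.7 and 33.9 in G108 HP. No treated mouse overlapped the controls. On HP all treated mice lay above all controls in 4 of 31 members and 4.20% of all genes tested, and below them in 1 member and 3.95%. For Slc25a51 the log2 fold change was 1.09 ± 0.25 (limma adjusted p = 0.0493). The call was kept only when a vehicle SP mouse or vehicle HP mouse 1 was the library left out, and was lost with any of the 11 others, where the limma adjusted p reached 0.198. It was kept under 6 of 10 other settings, with a limma adjusted p of at most 0.124.

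The 3 members called on SP were also higher with G108 on HP, by less, and did not pass the test there. Slc25a25 was at 32.7, 20.5, 13.8 and 18.9 scaled TPM in vehicle HP and at 29.2, 40.9, 43.5 and 34.5 in G108 HP. Vehicle HP mouse 1 overlapped the treated mice. The log2 fold change was 0.81 ± 0.23 (limma adjusted p = 0.124), and without that mouse it was 1.02 (limma adjusted p = 0.0285). The ratio of Slc25a25 to Slc25a23 was 0.626 ± 0.325 (SD, n = 4) in vehicle HP, 1.10 in mouse 1 alone, and 1.02 ± 0.294 in G108 HP.

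Slc25a48 was at 4.41, 3.76, 3.93 and 4.41 in vehicle HP and at 5.58, 4.86, 5.02 and 5.35 in G108 HP, without overlap, a log2 fold change of 0.28 ± 0.09 (limma adjusted p = 0.197). Slc25a22 was at 45.2, 32.3, 32.9 and 26.8 against 47.3, 56.8, 67.4 and 61.6, also without overlap, a log2 fold change of 0.76 ± 0.22 (limma adjusted p = 0.125).

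Slc25a30, a relative of the uncoupling proteins, had the largest difference in the other direction, and it is named after its values were seen. It was at 2.60, 4.32, 5.35 and 6.59 scaled TPM in vehicle HP and at 1.81, 1.26, 1.26 and 1.07 in G108 HP. The groups did not overlap, but the log2 fold change of -1.24 ± 0.35 was not called (limma adjusted p = 0.124). With vehicle SP mouse 4 left out, which leaves the fold change itself at -1.24, it was called (limma adjusted p = 0.0335). On SP it was at 4.503, 7.30, 9.28 and 1.79 with vehicle and at 2.37, 2.57, 4.98 and 5.52 with G108, so that the spread covered the difference of -0.37 ± 0.35, whose sign turned on TPM as deposited (0.24). The low value of 1.79 was in vehicle SP mouse 4, the library with the highest haemoglobin level.

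**Figure D3:**
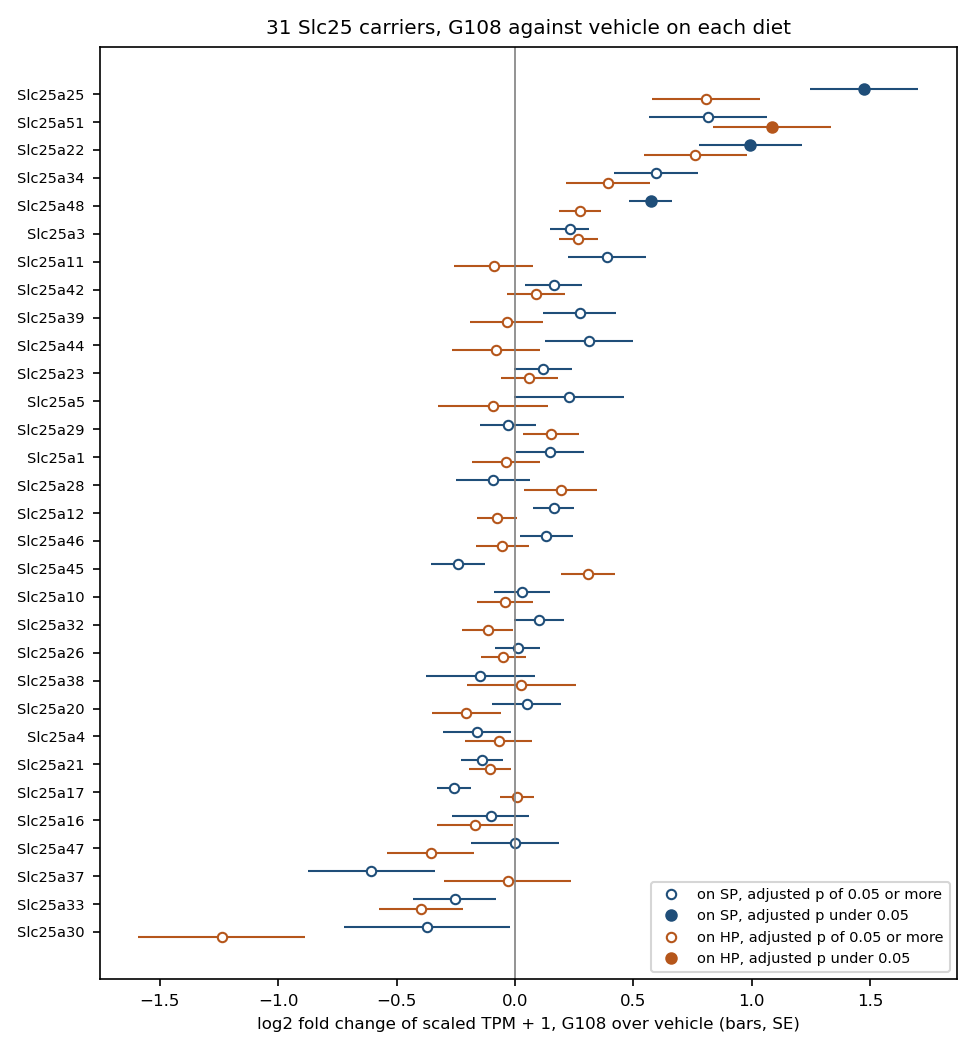
Log2 fold change of scaled TPM + 1, G108 over vehicle, for the 31 carriers tested, on SP (blue) and HP (orange), ordered by the mean of both, with bars for the SE. Filled points mark a limma adjusted p under 0.05: Slc25a25, Slc25a48 and Slc25a22 on SP and Slc25a51 on HP.

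Averaged over both diets, which uses all 8 treated and 8 control mice, 6 members rose: Slc25a25, Slc25a48, Slc25a22, Slc25a51, Slc25a3 and Slc25a34. That is 6 of 31, where 2.86% of all genes were called higher, and no member was called lower. At an unadjusted p under 0.05, 6 members were higher and 3 lower, 9 of 31 where 17.0% of all genes passed, and voom called 6 higher and 0 lower. The median log2 fold change of the 31 members was 0.04, against -0.00 over all genes, with 18 of 31 above 0, where 48.9% of all genes were. The average shares its libraries with the comparisons on each diet.

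The averaged log2 fold changes were 1.14 ± 0.16 for Slc25a25 (limma adjusted p = 6.35e-04), 0.42 ± 0.06 for Slc25a48 (limma adjusted p = 9.62e-04), 0.88 ± 0.15 for Slc25a22 (limma adjusted p = 0.00281) and 0.95 ± 0.18 for Slc25a51 (limma adjusted p = 0.00429). These 4 and Slc25a3 kept their calls with each of the 16 libraries left out. In Slc25a48, Slc25a22 and Slc25a51, all 8 treated mice lay above all 8 controls on scaled TPM, as they did in 0.862% of all genes tested. In Slc25a25 only vehicle HP mouse 1 broke that order. Without vehicle SP mouse 4 and G108 HP mouse 3, limma called 6 members, all but Slc25a34 of those above, together with Slc25a30 (lower, -0.98, limma adjusted p = 0.0180). The count over all genes in that fit is not given here, so the count of members has no share beside it. The call of Slc25a30, at -0.80 ± 0.25 with all libraries (limma adjusted p = 0.0769), was also made without vehicle SP mouse 4 alone or vehicle HP mouse 1 alone, at 0.00806 and 0.0491.

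Slc25a3 (chr10:91116574-91124059, minus strand), which brings phosphate into the matrix for ATP synthesis, had a small rise with little spread. It was at 44.5, 36.3, 36.8 and 35.6 scaled TPM in vehicle SP, at 44.8, 44.1, 46.5 and 44.5 in G108 SP, at 41.9, 38.14, 37.9 and 39.5 in vehicle HP and at 47.7, 45.5, 49.4 and 47.6 in G108 HP. Vehicle SP mouse 1 stood at the level of the treated mice, and the other controls below it. The averaged log2 fold change was 0.25 ± 0.06 (limma adjusted p = 0.0188). Slc25a34 was at 1.95, 1.59, 2.28 and 3.58 in vehicle HP and at 3.05, 3.04, 3.59 and 3.54 in G108 HP, with vehicle HP mouse 4 among the treated mice. Its averaged log2 fold change was 0.49 ± 0.12 (limma adjusted p = 0.0297). The call was kept without vehicle SP mouse 1 or 4, vehicle HP mouse 4, G108 SP mouse 1 or G108 HP mouse 1 or 2, and lost without any of the 10 others, at up to 0.0701.

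Members were also read as a share of the summed TPM of the 44 members, where scaling also cancels. Slc25a25 rose from 1.75% ± 0.186 (SD, n = 4) in vehicle SP to 4.43% ± 0.752 in G108 SP. It was 2.87% ± 1.12 in vehicle HP and 4.80% ± 1.22 in G108 HP. Its shares did not overlap on SP (vehicle up to 1.92%, G108 from 3.54%) but overlapped on HP (up to 4.435%, from 3.62%). Slc25a22 held 4.76% ± 2.14 and 7.72% ± 0.337 on SP, and 4.57% ± 1.10 and 7.52% ± 1.54 on HP, for vehicle and G108. As shares its groups overlapped on both diets. The highest vehicle share was 7.59% on SP and 6.14% on HP, the lowest G108 share 7.34% and 5.87%. The shares of Slc25a51 overlapped on SP (vehicle up to 3.83%, G108 from 3.24%) and not on HP (up to 2.92%, from 3.73%). Those of Slc25a48 did not overlap within either diet. Slc25a47, a liver-rich carrier, held 13.5% ± 2.62 and 11.5% ± 1.15 on SP, and 13.7% ± 1.67 and 10.3% ± 1.21 on HP. All 44 members summed to 592 to 760 scaled TPM in vehicle SP, 719 to 860 in G108 SP, 737 to 770 in vehicle HP and 706 to 876 in G108 HP, ranges that overlap.

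On TPM as deposited many more members were called. On SP, 26 of 31 members were then higher, where 77.0% of all genes were, and averaged over both diets 22 of 31, where 61.0% of all genes were. All members called on the scaled values were also called on TPM as deposited in the same comparisons.

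**Figure D4:**
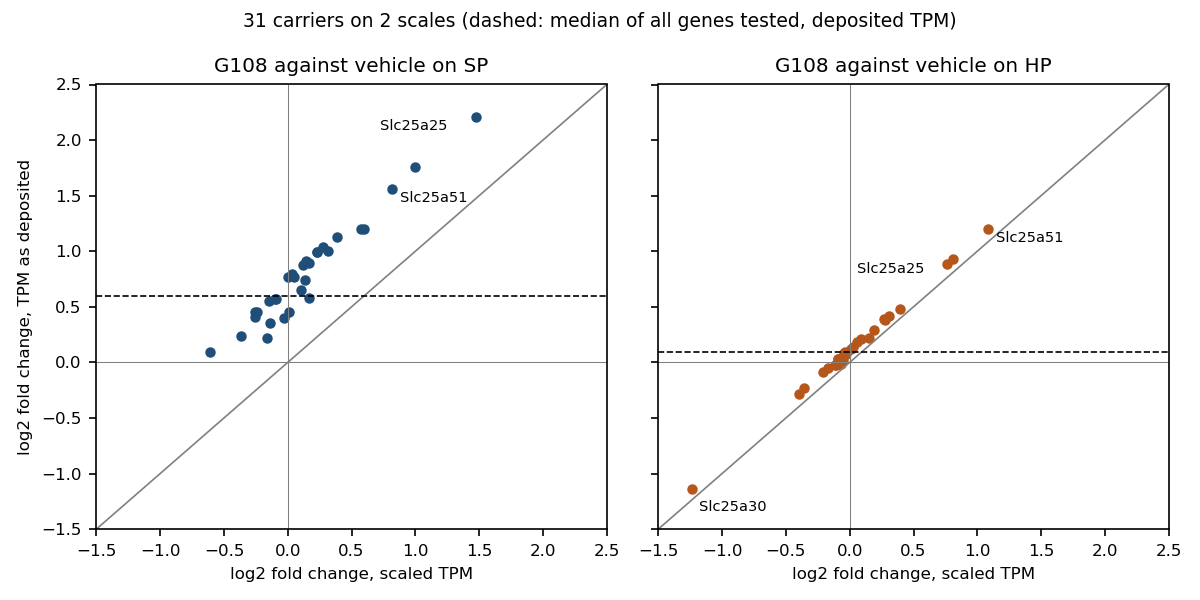
Log2 fold change, G108 over vehicle, of the 31 carriers from TPM as deposited (vertical) against scaled TPM (horizontal), on SP and on HP, with the line of equality. The dashed line is the median of all 11839 genes on deposited TPM, 0.60 on SP and 0.09 on HP: on SP the carriers sit above equality by about this shift, and Slc25a25 stands out on both scales.

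By role, the exchangers of ADP, ATP and phosphate had 2 of 5 tested members called higher in the averaged comparison (Slc25a25 and Slc25a3). Of all genes, 2.86% were called higher there. The counts by role divide the same 6 calls and are not separate results, and the lists were chosen with earlier results known. The other 3 were not called. Slc25a5 was at 112 ± 36.5 scaled TPM (SD, n = 4) in vehicle SP, 125 ± 16.6 in G108 SP, 131 ± 8.38 in vehicle HP and 124 ± 25.3 in G108 HP. Slc25a23 was at 33.7 ± 2.44, 36.9 ± 4.33, 35.9 ± 4.81 and 37.5 ± 4.68 in the same order. Their averaged log2 fold changes were 0.07 ± 0.16 and 0.09 ± 0.09 (limma adjusted p = 0.893 and 0.683).

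Carriers of citrate, dicarboxylates and oxoglutarate supply cytosolic citrate for fat synthesis and malate for glucose synthesis. Of these, 1 of 5 tested members was called in the averaged comparison (Slc25a34), where 2.86% of all genes were called higher. The substrate of Slc25a34 is unsettled, so its place in this list is uncertain. Slc25a1, the citrate carrier, was at 70.2 ± 8.14 scaled TPM (SD, n = 4) in vehicle SP, 78.0 ± 11.2 in G108 SP, 75.8 ± 8.18 in vehicle HP and 74.2 ± 12.8 in G108 HP. Slc25a10, the dicarboxylate carrier, was at 54.6 ± 2.91, 55.8 ± 3.17, 51.9 ± 5.35 and 50.7 ± 9.33, an averaged log2 fold change of -0.01 ± 0.08 whose sign turned on TPM as deposited (0.44). Slc25a11, the oxoglutarate carrier of the malate-aspartate shuttle, was at 19.5 ± 3.48, 25.7 ± 3.53, 23.5 ± 1.61 and 22.4 ± 5.47. None of the 3 was called, and the averaged log2 fold change of Slc25a1 was 0.05 ± 0.10 and that of Slc25a11 0.15 ± 0.12. For Slc25a11 this joins 0.39 ± 0.17 on SP (limma adjusted p = 0.241) and -0.09 ± 0.17 on HP (limma adjusted p = 0.898). The SP difference was called under 3 of 10 other settings. Vehicle SP mouse 4, at 14.3 scaled TPM of Slc25a11, lay below the 20.4 to 21.65 of the rest of its group.

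The list of amino acid and glutathione carriers here also holds the choline-linked Slc25a48. In the averaged comparison 2 of its 7 tested members were called (Slc25a48 and Slc25a22), where 2.86% of all genes were called higher. Of these 2, only Slc25a22 is described here as carrying an amino acid. Slc25a39, needed for mitochondrial glutathione, was at 86.4 ± 17.9 scaled TPM (SD, n = 4) in vehicle SP, 103 ± 8.67 in G108 SP, 99.5 ± 2.81 in vehicle HP and 98.2 ± 16.5 in G108 HP, an averaged log2 fold change of 0.12 ± 0.11 (limma adjusted p = 0.664). The other 4 tested members (Slc25a44, Slc25a38, Slc25a29 and Slc25a12) had averaged log2 fold changes between -0.06 and 0.12. Relative to Slc25a39 in the same library, Slc25a22 was at a ratio of 0.407 ± 0.239 in vehicle SP and 0.606 ± 0.0271 in G108 SP, where vehicle SP mouse 4 alone, at 0.749, lay above the treated mice. On HP the ratios were 0.345 ± 0.0781 and 0.613 ± 0.177, with the highest vehicle ratio (0.4565) above the lowest G108 ratio (0.444).

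The 8 carriers of fatty acyl groups and cofactors were tested and 1 was called in the averaged comparison (Slc25a51). Of all genes, 2.86% were called higher there. Slc25a47 was at 95.2 ± 26.9 scaled TPM (SD, n = 4) in vehicle SP, 92.5 ± 7.89 in G108 SP, 103 ± 12.9 in vehicle HP and 80.9 ± 14.2 in G108 HP, an averaged log2 fold change of -0.18 ± 0.13 that was 0.27 on TPM as deposited. Slc25a42, the coenzyme A carrier, was at 15.6 ± 1.75, 17.5 ± 1.58, 15.2 ± 2.93 and 16.02 ± 0.904. Slc25a20, which exchanges acylcarnitine for carnitine in fat oxidation, had an averaged log2 fold change of -0.08 ± 0.10 (limma adjusted p = 0.783), and 2 SE either side reached from -0.28 to 0.13.

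The iron carriers Slc25a37 and Slc25a28, the pyrimidine nucleotide carrier Slc25a33 and the members with no role assigned, Slc25a45 and Slc25a46, had no call in the comparisons of G108 with vehicle. Slc25a37, which supplies iron for haem in red cell precursors, was at 8.96, 8.11, 8.09 and 24.1 scaled TPM in vehicle SP, and between 5.98 and 9.79 in the other groups. The high value was in vehicle SP mouse 4. The red blood cell list (5 of 5 genes found) summed to 3094 scaled TPM in that library, 843 being the lowest of its group, and to 656 to 919 in G108 SP, 997 to 1307 in vehicle HP and 986 to 2388 in G108 HP. Alas2, an enzyme of haem synthesis in red cell precursors, was not raised in that library, at 21.2 scaled TPM against 21.3 to 27.1 in the rest of its group. The part of blood in these values was not tested.

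HP against SP, within the G108 mice and within the vehicle mice, asked what the added protein does. With limma no member was called in either comparison, and 0.00% of all genes were called in each. With G108, 3 of 31 members passed an unadjusted p under 0.05 (2 higher, 1 lower), where 5.40% of all genes did, and with vehicle 2 of 31 did (both higher), where 3.94% of all genes did. Voom called 0 members in both, with 3 and 2 at an unadjusted p under 0.05. Among vehicle-treated mice these were Slc25a25 and Slc25a48, both also called for G108. HP was higher than SP by 0.71 ± 0.23 for Slc25a25 and by 0.28 ± 0.09 for Slc25a48 on the log2 scale, each at a limma adjusted p of 0.832. These comparisons share the vehicle mice with those of G108. Among G108-treated mice Slc25a25 differed between the diets by 0.05 (2 SE either side, -0.41 to 0.51) and Slc25a48 by -0.01 (-0.19 to 0.17).

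The 3 members that passed an unadjusted p under 0.05 with G108 were Slc25a30, Slc25a45 and Slc25a17. Slc25a30 was lower on HP than on SP (-0.995 ± 0.35, limma adjusted p = 0.806), and this held on TPM as deposited (-1.36). Slc25a45, a carrier with no role assigned here, was at 7.52, 8.54, 7.01 and 8.12 scaled TPM in G108 SP and at 9.04, 11.6, 10.4 and 9.74 in G108 HP, a log2 fold change of 0.35 ± 0.11 (limma adjusted p = 0.804) whose sign turned on TPM as deposited (-0.06). Slc25a17, a carrier of the peroxisomal membrane, was at 9.96, 10.0, 9.68 and 10.5 against 11.8, 11.9, 10.7 and 11.5, a log2 fold change of 0.17 ± 0.07 (limma adjusted p = 0.858) that was -0.24 on TPM as deposited.

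The interaction, which tests whether the response to G108 differed between the diets, had no called member with limma, as 0.00% of all genes were called. At an unadjusted p under 0.05 there were 3 of 31 members (2 higher, 1 lower), where 7.21% of all genes passed, and voom called 0, with 5 at that p. The 3 were Slc25a45 (0.55 ± 0.16), Slc25a17 (0.27 ± 0.10) and Slc25a48 (-0.30 ± 0.13), each at a limma adjusted p of 0.575, and the first 2 changed sign on TPM as deposited, to -0.04 and -0.33. Slc25a25 and Slc25a12 passed an unadjusted p under 0.05 in voom and not in limma. For Slc25a25 the limma interaction was -0.67 ± 0.32 and for Slc25a51 0.27 ± 0.35. Ranges of 2 SE either side reached from -1.31 to -0.02 and from -0.44 to 0.97. A response that differs between the diets was therefore not shown for any carrier, and differences of these sizes could not be told from 0 after adjustment.

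Other genes of mitochondrial transport gave no call. Averaged over both diets, 2.86% of all genes were called higher and 2.95% lower, and these shares were smaller on each diet alone. An absence of calls in lists this short lies near those shares, and no contrast with the carriers is read from it. Of 17 listed genes for other routes across the mitochondrial membranes, among them the uncoupling proteins, the pyruvate carrier subunits Mpc1 and Mpc2, sideroflexins and the porins Vdac1 to Vdac3, 13 were tested, and limma and voom each called 0 in all 6 comparisons. In the averaged comparison their median log2 fold change was 0.07, with 2 at an unadjusted p under 0.05. Of 16 genes that import and insert carrier proteins, such as Tomm70a, the small Timm chaperones and Timm22, 15 were tested, and both tools again called 0. Their median was 0.03 in the averaged comparison, with 2 at an unadjusted p under 0.05. On SP, 4 of 13 and 3 of 15 passed that p, where 17.7% of all genes did, and on HP none did, where 11.3% of all genes did.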

How the data were processed

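RNA was sequenced from 16 livers. According to the submitters' processing notes, reads were checked with FastQC 0.11.8, aligned to GRCm38 with HISAT2 2.0.5, counted per gene with featureCounts and tested with DESeq2 1.36.0. The authors deposited TPM per Ensembl gene and library, with no scaling between libraries. Whether counting used strand is not given in the sources used here, so reads of overlapping opposite-strand genes cannot be told apart.

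Symbols and positions came from the GENCODE annotation of GRCm38, in which 55227 of 55487 identifiers matched. Low TPM lie on steps of a single read (98.7% of 139252 values of at most 20 reads lay within 0.02 of a whole read), which gave the depth of 27.8 to 45.0 M reads. TPM were divided by a median-of-ratios factor per library (from 11591 genes). log2(scaled TPM + 1) of 11839 genes, those averaging 1 TPM or more, was fitted in limma 3.58.1 (R 4.3.3), with 1 mean per group over all 16 libraries and 6 contrasts, and genes were called at a Benjamini-Hochberg adjusted p under 0.05. On simulated data for G108 against vehicle on SP, where 200 of 11839 genes were changed by 1 on the log2 scale, 81.5% were recovered and 2.40% of calls were wrong. The simulated noise was independent between genes and libraries, with no deviation of a whole library. These rates therefore check the fit and do not give the error rate of the real data. Within groups, libraries correlated at r = 0.925 to 0.990 across genes.

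One carrier that the member rule includes is not reported here and was left out of the members' counts and sums, though it stayed among the genes fitted. The members and the lists of roles, related genes and cell type markers were chosen with earlier results of these data known. Values are given for members called in any contrast and for the 12 most abundant, others by role, and members under 1 TPM by their highest library. Alternatives were no scaling, scaling without mitochondrial-genome and Mup genes, a pseudocount of 0.1, other filters (none, or a mean TPM of 5), a fit restricted to the compared groups, mouse number as a replicate block, array weights, each library's GC slope (99.65% of tested genes had a GC value), voom on recovered reads, each library left out and, added after seeing the data, the libraries of vehicle SP mouse 4 and G108 HP mouse 3 left out together.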

Additional observations from a re-analysis of the deposited data

Results flagged for a closer look

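In 124 tests, 31 carriers in 4 groups, the highest or lowest mouse stood apart from the other 3 of its group by Dixon's criterion at its 95% critical value for 4 samples in 10 cases. Chance flags about 1 in 20 groups. The library of vehicle SP mouse 4, with the highest haemoglobin level, accounted for 4 of the 10: Slc25a37 at 24.1 scaled TPM (the others 8.09 to 8.96), Slc25a38, a glycine carrier of haem synthesis, at 17.3 (6.32 to 7.64), Slc25a29 at 1.71 (1.03 to 1.06) and Slc25a11 at 14.3 (20.4 to 21.65). G108 SP mouse 1 gave Slc25a5 at 99.99 (131.7 to 135.4) and Slc25a37 at 9.78 (5.98 to 6.22). The rest were single values: Slc25a3 at 44.5 in vehicle SP mouse 1, Slc25a33 at 6.26 in G108 SP mouse 4, Slc25a26 at 0.880 in G108 HP mouse 1 and Slc25a4 at 1.56 in G108 HP mouse 3. The part of blood RNA in the values of vehicle SP mouse 4 was not tested.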

How the results depend on the processing

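Members called numbered 3 for G108 on SP, 1 on HP and 6 averaged over both diets. On SP the count was 26 on TPM as deposited, 9 with array quality weights (7 higher, 2 lower), 8 with each library's GC slope as a covariate (5 higher, 3 lower), 1 with only the groups compared, and 2 to 6 with each library left out. On HP it was 6 with array weights (5 higher, 1 lower), 2 on TPM as deposited and with the GC slope, 0 with a pseudocount of 0.1, with no filter, with only the groups compared, with the mouse number as a replicate block and without vehicle SP mouse 4 and G108 HP mouse 3 together, and 0 to 2 with each library left out. The averaged count was 22 on TPM as deposited, 9 with array weights (6 higher, 3 lower) and 5 to 7 with each library left out. HP against SP with G108 gave 2 with array weights (1 higher, 1 lower), otherwise 0. HP against SP with vehicle and the interaction gave 0 throughout. Restricting the fit to the groups compared gives no other value for the averaged comparison and the interaction, and members under 5 TPM had no value with that filter. Over all genes the calls moved as well: on SP there were 322, against 9185 on TPM as deposited, 1821 with array weights, 1804 with the GC slope, 103 with only the groups compared, 213 with the replicate block and 158 to 471 with each library left out. On HP they numbered 145, against 795 with array weights, 132 on TPM as deposited and 115 with the GC slope. There were 147 with a pseudocount of 0.1, 43 with no filter and 77 with the higher filter. Only the groups compared gave 52, the replicate block 35, and each library left out 17 to 210. The counts over all genes without vehicle SP mouse 4 and G108 HP mouse 3 together are not given here. Averaged they were 688, against 7335 on TPM as deposited, 2188 with array weights, 1197 with the GC slope and 396 with the higher filter. With each library left out there were 459 to 871. HP against SP with G108 had 0, against 297 with array weights. The cause of these differences was not tested.

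Of 995 alternative values of 38 member fold changes, 910 kept direction and side of the threshold, 37 lost the call, 31 gained one and 17 turned sign, none of these 17 from a fold change called on the scaled TPM. On TPM as deposited these were Slc25a10 and Slc25a47 averaged (0.44 and 0.27), Slc25a30 on SP (0.24), and Slc25a17 and Slc25a45 both for HP against SP with G108 (-0.24 and -0.058) and in the interaction (-0.33 and -0.038). Without vehicle SP mouse 4 and G108 HP mouse 3 together, Slc25a10 (0.034) and Slc25a5 (-0.015) averaged turned. With each library left out, Slc25a10 averaged lay between -0.061 and 0.030, and Slc25a5 averaged between -0.077 and 0.13.

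The mouse numbers share only a number: over 24 same-numbered pairs across groups the correlation of deviations ran from -0.567 to 0.529 (median -0.0276), with 8 above 0.1. With the mouse number as a replicate block, limma called 2 members on SP, 0 on HP and 6 averaged. Depth limits the 13 members under 1 TPM, whose lowest libraries held 0 to 58 reads.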

Other observations

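The carriers differed in how much they varied between mice of the same group. The within-group SD on the log2(scaled TPM + 1) scale, over 16 libraries in 4 groups and among the 31 carriers tested, was lowest for the peroxisomal carrier Slc25a17 (0.07) and the phosphate carrier Slc25a3 (0.08) and highest for Slc25a30 (0.54), the iron carrier Slc25a37 (0.41), Slc25a51 (0.38), the glycine carrier Slc25a38 (0.35), the ADP/ATP exchanger Slc25a5 (0.35) and Slc25a25 (0.35). Slc25a17, Slc25a3 and Slc25a5 averaged 11.45, 44.2 and 129 TPM. The SD of Slc25a30, Slc25a37, Slc25a38 and Slc25a5 includes vehicle SP mouse 4, which was the lowest of its group for Slc25a30 and Slc25a5 and the highest for Slc25a37 and Slc25a38.

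The ratio of the iron carriers Slc25a37 and Slc25a28 (mitoferrins) in the same library was 1.98 ± 0.549 (SD, n = 4) in vehicle SP, with 2.79 in mouse 4, 1.64 ± 0.106 in vehicle HP, 1.32 ± 0.217 in G108 SP and 1.37 ± 0.113 in G108 HP. The ratios of G108 SP mouse 1 (1.63) and G108 HP mouse 1 (1.52) lay within the range of the vehicle mice, 1.51 to 2.79, and the other 6 treated mice lay below it. This pattern was seen in the values and not tested.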
